A study of Mus musculus with 19 samples.

Results

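Spleen libraries from cells gated as germinal centre B cells (CD95+/GL7+) and labelled wild type (n = 3) were set against spleen libraries of antibody-secreting cells (CD138+), also labelled wild type (n = 3). These 6 of the 19 libraries of the series were chosen by their sample titles, and the comparison asks how far the former stand along the path to plasma cells. All mice had been injected intraperitoneally with sheep red blood cells (SRBC), and tissue was taken on day 28. The series design lists 3 wild-type mice and 4 Pik3cg knockout mice. Libraries used as landmarks were splenic naive B cells (CD3-/B220+/IgD+) labelled wild type (n = 3), the same gate labelled Pik3cg knockout (n = 3), germinal-centre-gated cells labelled Pik3cg knockout (n = 4), and bone marrow antibody-secreting cells labelled wild type (n = 3). The labels do not say whether libraries of a group came from separate mice, and give neither the age of the mice nor the allele that was deleted. In the naive and secreting cell tables, the headings of 9 columns read HET where the sample labels give wild type, and the labels were kept. Below, "gated libraries" means the 3 germinal-centre-gated libraries labelled wild type, and "secreting libraries" the 3 splenic ones.

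A germinal centre B cell that commits to secretion switches on Prdm1 (Blimp1) and Irf4, which close down the B cell programme held by Pax5, Bach2 and Bcl6. Xbp1 then enlarges the endoplasmic reticulum (ER), where antibody chains are translocated, folded, glycosylated and checked before transport to the Golgi. On the way, antigen presentation is lost, division stops in the mature plasma cell, and receptors for survival factors such as BCMA (Tnfrsf17) appear.

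Expression was deposited as CPM, counts of assigned reads scaled to 1000000 per library. A gene name had to occur once in both tables, which left 15235 names, and 242 immunoglobulin rows together with Jchain were removed. The other 14993 were rescaled to 1000000 in each library, and all levels below are rescaled CPM unless said otherwise. Removal mattered because immunoglobulin transcripts made up 61.5% to 66.1% of CPM in the secreting libraries and 6.8%, 13.1% and 13.2% in the gated ones. That left 2940000 to 4380000 reads per secreting library and 16530000 to 19680000 per gated library, as estimated from the value of 1 read, so low genes were measured more coarsely in secreting cells. Jchain, which links antibody chains into polymers, stood at 105471 to 108142 deposited CPM in secreting cells. It stood at 2071, 4311 and 4775 in the gated libraries, and at 370 to 467 in labelled wild-type naive B cells.

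The labelled germinal centre identity was checked first. Bcl6, the transcription factor that holds cells in the germinal centre, stood at 1.78, 1.24 and 0.484 CPM in the gated libraries, below the 29.1 to 47.8 CPM of the same gate labelled knockout and near the 0, 0 and 2.97 CPM of the secreting libraries. Rgs13 and the confinement receptor S1pr2 were listed at 0 in all 3 gated libraries, as was Gcsam. Of 20 listed germinal centre genes, 18 were in both tables and 12 passed the minimum, of which 3 were higher in the gated libraries and 3 higher in secreting cells (6 and 0 of 7 on CPM as deposited). Over all compared genes, 25.8% were higher in the gated libraries and 21.2% in secreting cells, and as deposited 5272 of 7109 were higher in the gated ones. The list count is near these shares and does not bear on identity. Fas, which encodes the CD95 used in the gate, stood at 248, 233 and 257 CPM against 86.7, 76.1 and 90.4 CPM. The gated libraries thus carried the sorted marker and the methyltransferase gene Ezh2 (157 CPM on average against 6.51 CPM), with Bcl6, Rgs13, S1pr2 and Gcsam near or at 0, and they are named here by their gate.

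Because the groups stand in separately normalized tables, no p-value was computed, and a gene was called higher in a group by 2 conditions. Its lowest library there had to exceed the highest library of the other group, and the difference of mean log2(CPM + 1) had to reach 1, a 2-fold change. A mean of 10 CPM or more over the 6 libraries was required, and 4178 of the 8903 genes that met it were called (46.9%). Of these, 1885 (21.2%) were higher in secreting cells and 2293 (25.8%) higher in the gated libraries, and the median difference over all genes, secreting minus gated, was -0.17 on the log2 scale. Secreting cells supplied 45.1% of the calls on this scale and 5.2% on CPM as deposited (288 higher and 5272 lower of 7109 compared), where immunoglobulin transcripts stay in the total and the median difference was -2.09. A list higher in the gated libraries on the rescaled values therefore could not turn round on the deposited scale.

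Cell type and table cannot be told apart in these counts. Of the 2293 genes higher in the gated libraries, 836 (36.5%) had all 7 libraries of the germinal centre table above all 12 libraries of the other 3 tables. Of the 1885 higher in secreting cells, 799 (42.4%) had the whole germinal centre table below, which leaves 1457 and 1086. Processed pseudogenes showed the split most plainly. Of 932 compared, 695 (74.6%) were higher in secreting cells, with a median difference of 2.45, and naive minus gated gave 2.44 while secreting minus naive gave -0.12. Among 7753 protein-coding genes, 1094 (14.1%) were higher in secreting cells and 2240 (28.9%) in the gated libraries, with a median of -0.38.

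Prdm1, Irf4 and Xbp1 were above naive B cells and below secreting cells in the gated libraries, whereas Zbtb20, Creb3l2 and Arid3a stood near or below the naive level there. In such bulk samples, fewer cells of a type and less RNA per cell cannot be told apart. Of 14 plasma cell regulators compared, 11 were higher in secreting cells and none in the gated libraries on the rescaled values, with a median difference of 1.78, and on CPM as deposited the counts were 2 and 1. Prdm1 (ENSMUSG00000038151, mm10 chromosome 10, 44437177 to 44528501, minus strand), the master repressor of the B cell programme, stood at 112, 104 and 67.4 CPM in the gated libraries and at 426, 172 and 394 CPM in secreting cells. Every gated library lay above the 0 to 8.40 CPM of labelled wild-type naive B cells and the 0 to 22.7 CPM of the gate labelled knockout. The difference to secreting cells was 1.72 (SE 0.47), a 3.50-fold gap between means of 94.4 ± 23.7 and 330.6 ± 138.5 CPM (SD, n = 3 each), and -0.06 on CPM as deposited.

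Irf4 (ENSMUSG00000021356, chromosome 13, 30749226 to 30766976, plus strand), which at high dose drives plasma cell fate, stood at 146.3, 212.4 and 140.5 CPM against 801.4, 377.3 and 669.6 CPM. Secreting replicate 2 was the lowest of its group for both regulators and still above every gated library. Naive B cells labelled wild type ranged from 45.2 to 68.9 CPM and the gate labelled knockout from 15.0 to 51.3 CPM, so the gated libraries stood apart from both. The difference was 1.84 (SE 0.38) on rescaled values and 0.05 as deposited.

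Xbp1 (ENSMUSG00000020484, chromosome 11, 5520659 to 5525893, plus strand), which builds the secretory apparatus, stood at 2701, 3389 and 4441 CPM in the gated libraries. The secreting libraries held 18495, 17125 and 16841 CPM, 4.98-fold more on average (difference 2.34, SE 0.21, and 0.55 as deposited). Naive B cells labelled wild type held 353 to 416 CPM and the gate labelled knockout 374 to 597 CPM. Of these 4 groups, only the gated libraries labelled wild type had left the naive level without reaching that of secreting cells.

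Other members of the list were at low levels in the gated libraries. Zbtb20, a repressor needed by long-lived plasma cells, stood at 32.2, 28.4 and 18.8 CPM in the gated libraries, below the 83.7 to 97.8 CPM of labelled wild-type naive B cells, and at 156, 242 and 191 CPM in secreting cells. Bhlha15 (Mist1), a factor of the mature secretory cell, stood at 0, 12.2 and 6.65 CPM against 201, 40.8 and 111 CPM. Creb3l2, a transmembrane factor that raises secretory capacity, stood at 7.17, 10.3 and 8.83 CPM against 196.4, 109.8 and 211.6 CPM, with a gap of 19.7-fold and a naive mean of 7.87 CPM. Arid3a, a DNA-binding factor of B cells, stood at 4.42, 10.4 and 13.9 CPM against 121.9, 39.8 and 70.5 CPM, with 6.57 CPM in naive B cells. The elongation factor gene Ell2, which favours secretory immunoglobulin mRNA, averaged 176 CPM in the gated libraries, 942 CPM in secreting cells and 26.2 CPM in naive B cells. Pou2af1, a coactivator of octamer factors, and Atf6, an ER stress sensor, were not called, with differences of 0.55 and 0.84. Ell2 and these were named after their values were seen.

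**Figure D1:**
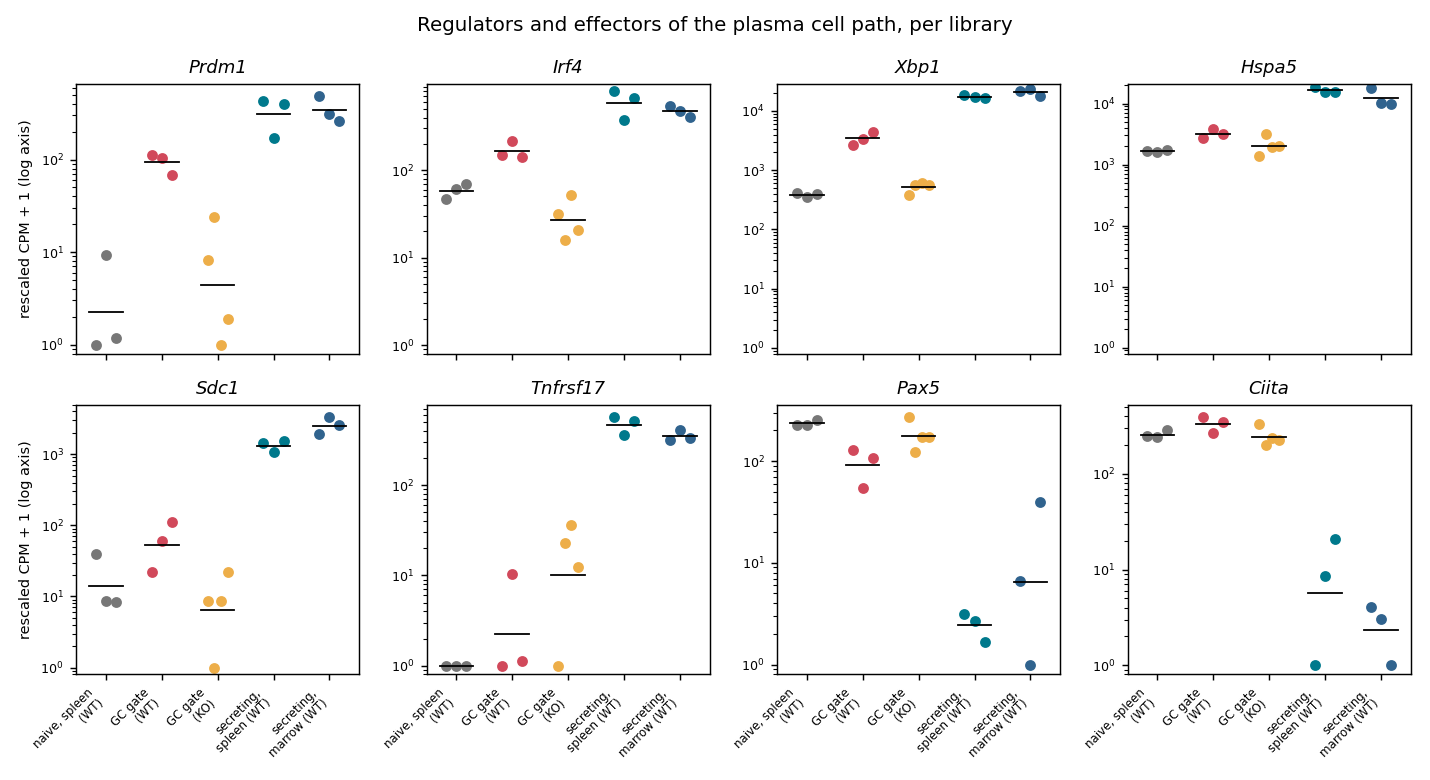
Rescaled CPM plus 1 (log axis) of 8 genes in each library of 5 groups, with 1 point per library and a bar at the mean of log2 values. Prdm1, Irf4 and Xbp1 of the gated libraries labelled WT lie between naive and splenic secreting cells, Tnfrsf17 is at 0, 9.26 and 0.121 CPM there, and Ciita is at 267 to 393 CPM.

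The ER and transport machinery followed the regulators on the rescaled values. Of 26 folding and disulphide genes, 19 were higher in secreting cells and none in the gated libraries (median 1.63), and on CPM as deposited 3 were higher and 6 lower among 25. Of 19 genes of ER-associated degradation and stress sensing, 12 were higher (median 1.98), against 2 higher and 3 lower as deposited. Of 24 translocation genes, 14 were higher and 1 lower (median 1.47), against 1 and 8 as deposited. Of 39 genes of COPII, COPI and Golgi transport, 23 were higher (median 1.25), against 0 higher and 15 lower among 38 as deposited. N-glycosylation showed 9 higher and 2 lower among 21 (median 0.63), against 0 and 11 among 20. On the deposited scale, where 5272 of all 7109 compared genes were lower in secreting cells, each of these 5 lists had a smaller share of its members lower.

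Summed over the 27 folding genes found, the gated libraries held 14397 to 19806 CPM, between 6083 and 6444 CPM in labelled wild-type naive B cells and 55474 to 59466 CPM in secreting cells. Hspa5 (BiP, ENSMUSG00000026864, chromosome 2, 34771970 to 34777547, plus strand), the main chaperone of the ER lumen, stood at 2694, 3815 and 3216 CPM against 18614, 15607 and 15196 CPM. The groups did not overlap and the gap was 5.08-fold (difference 2.35, and 0.56 and not called as deposited), while the gate labelled knockout (1358 to 3119 CPM) overlapped the gated libraries. Txndc5, a disulphide isomerase, stood at 216, 324 and 457 CPM against 3818, 2459 and 3331 CPM, with naive B cells at 363 CPM on average. Its level in the gated libraries was thus at that of naive cells. Mzb1, an ER cofactor of antibody assembly also high in marginal zone B cells, stood at 2149, 3286 and 2612 CPM against 6303, 7974 and 7491 CPM, with 388 CPM in naive B cells and 556 to 817 CPM in the gate labelled knockout. It was 2.71-fold higher in secreting cells, and the difference turned from 1.45 to -0.34 as deposited.

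Members of a list differed in how far the gated libraries had come. Derl3, a channel component of ER-associated degradation, stood at 5.44, 19.3 and 32.0 CPM against 1077, 588 and 1142 CPM. That 49.5-fold gap was the widest among the named ER genes. Edem2, which marks misfolded glycoproteins, stood at 148, 149 and 181 CPM against 1390, 1518 and 1269 CPM. Sec61a1, the pore of the translocon, stood at 254, 184 and 267 CPM against 2578, 1076 and 2201 CPM, whereas its paralogue Sec61a2 was higher in the gated libraries (37.8, 27.1 and 39.0 against 2.95, 12.4 and 0.228 CPM). Kdelr3, a retrieval receptor for ER proteins, was at 7.83, 4.13 and 0 CPM in the gated libraries and at 41.5 to 58.4 CPM in secreting cells. Alg8, a glucosyltransferase of the lipid-linked glycan, ran the other way, at 79.0, 82.5 and 95.3 CPM against 13.0, 28.9 and 22.1 CPM.

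Promoters of the 5 ER and transport lists were searched for the ER stress response element, to which the cleaved ATF6 factor binds together with NF-Y. It was written as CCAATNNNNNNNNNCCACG and searched on both strands, beside the unfolded protein response element core TGACGTG. Windows of 250 bases before to 50 after a start were taken from RefSeq (GRCm38.p6), and 108 of the 133 listed genes matched by symbol. The first motif was in 10 of 122 windows of these lists (8.20%), in 12 of 8125 windows of the compared genes (0.148%) and in 39 of all 32851 windows (0.119%). All 10 windows of the lists belonged to folding (8 of 29 windows, 27.6%) or to ER-associated degradation (2 of 17). TGACGTG was in 17 of 122 windows (13.9%) and in 661 of all (2.01%), and the motifs did not overlap in any window of the lists. The matches are descriptions of letters and do not show binding. 4 windows are printed without their last 50 bases, 5′ to 3′ on the strand of the gene, because their genes differ widely in how far the gated libraries stood below secreting cells. Capitals mark the searched motifs.
Hspa5, chr2:34771840-34772089, plus strand: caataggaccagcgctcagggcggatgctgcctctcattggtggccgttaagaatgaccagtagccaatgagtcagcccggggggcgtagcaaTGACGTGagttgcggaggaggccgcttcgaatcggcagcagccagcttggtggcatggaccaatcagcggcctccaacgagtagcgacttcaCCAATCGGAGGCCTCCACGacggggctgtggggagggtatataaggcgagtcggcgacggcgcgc
Hsp90b1, chr10:86705445-86705694, minus strand: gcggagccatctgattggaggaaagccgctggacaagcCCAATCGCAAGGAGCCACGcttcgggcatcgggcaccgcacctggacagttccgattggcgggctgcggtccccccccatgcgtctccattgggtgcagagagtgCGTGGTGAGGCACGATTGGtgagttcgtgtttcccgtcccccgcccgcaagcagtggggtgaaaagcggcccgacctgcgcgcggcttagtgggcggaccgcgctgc
Derl3, chr10:75893148-75893397, plus strand: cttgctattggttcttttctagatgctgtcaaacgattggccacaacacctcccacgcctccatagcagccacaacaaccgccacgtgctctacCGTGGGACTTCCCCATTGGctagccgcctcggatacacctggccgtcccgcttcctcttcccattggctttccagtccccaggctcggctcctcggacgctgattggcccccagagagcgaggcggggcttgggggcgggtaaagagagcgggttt
Syvn1, chr19:6046326-6046575, plus strand: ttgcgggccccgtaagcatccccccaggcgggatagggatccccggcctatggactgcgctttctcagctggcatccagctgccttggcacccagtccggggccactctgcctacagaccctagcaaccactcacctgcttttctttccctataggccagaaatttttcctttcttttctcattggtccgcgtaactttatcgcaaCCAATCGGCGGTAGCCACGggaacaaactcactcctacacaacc

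The Hspa5 window holds both motifs, the element ending 46 bases before the RefSeq start. The GENCODE start of Hspa5 given above lies inside this window, upstream of the element. Hsp90b1, the ER paralogue of HSP90, holds 2 elements, ending 193 and 88 bases before the start, and averaged 2123 CPM in the gated libraries against 6513 CPM in secreting cells and 275.2 CPM in naive B cells. Syvn1, the ubiquitin ligase of ER-associated degradation, has its element ending 25 bases before the start, yet stood at 14.0, 25.1 and 19.9 CPM in the gated libraries, below the 68.3 CPM of naive B cells and the 318.6, 66.6 and 264.1 CPM of secreting cells (difference 3.15, and 1.38 and not called as deposited). Of the 10 genes with the element, 9 were compared and 7 were higher in secreting cells, beside 77 of the 129 compared members of the 5 lists. Of 3 other compared genes with the element outside these lists, none was higher in secreting cells and 1 was higher in the gated libraries. The median difference was 1.65 for the 9 compared genes of the lists with the element, 0.76 for the 3 outside the lists and 1.34 for the 129 compared members. Canx and Pdia6, a lectin chaperone and a disulphide isomerase, held the element and were not called (differences 0.34 and 0.68).

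Surface receptors of plasma cells separated the groups most widely of the secretory lists. Of 18 compared, 13 were higher in secreting cells and none in the gated libraries (median 3.71), against 10 higher and 4 lower among 16 as deposited. Tnfrsf17 (BCMA), the receptor for the survival factor APRIL, was at 0, 9.26 and 0.121 CPM in the gated libraries and at 571 and 508 CPM in secreting replicates 1 and 3, with a mean of 479 CPM over the 3 secreting libraries. Ccr10, a homing receptor, was at 0, 4.48 and 0 CPM against 152, 69.7 and 163 CPM. Itgb7, an integrin chain of homing to mucosa, was at 12.3, 1.12 and 0 CPM against 572, 130 and 419 CPM, with 112 CPM in naive B cells. Sdc1, which encodes the CD138 of the sort and so cannot count as a finding, was at 21.3, 59.4 and 110 CPM against 1420, 1067 and 1511 CPM. Slamf7 and Cd44 were already near the secreting level, at 625 and 952 CPM on average against 884 and 657 CPM, and neither was called. Both were named after their values were seen.

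The B cell programme was partly down in the gated libraries, and antigen presentation was not. Pax5 (ENSMUSG00000014030, chromosome 4, 44524757 to 44710487, minus strand), which fixes B cell identity, stood at 128, 53.2 and 107 CPM, below the 223.1 to 252.0 CPM of labelled wild-type naive B cells. The secreting libraries held 2.12, 1.70 and 0.685 CPM, a difference of -5.23 (SE 0.47). Bach2, which delays plasma cell fate, stood at 15.9, 38.7 and 59.5 CPM against 20.6, 11.2 and 16.9 CPM, with 154 CPM in naive B cells. The groups overlapped in gated replicate 1, and Bach2 was not called (difference -1.03), while without that library it was, at -1.55.

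Of 20 B cell identity factors, 8 were higher in the gated libraries and 4 in secreting cells (median -0.36), and the balance depended on the scale, with 14 and 1 as deposited and 5 and 5 after median-of-ratios scaling. Klf2, a quiescence and migration factor, was among the 4, at 10.3, 4.01 and 2.18 CPM in the gated libraries, 196.4, 113.2 and 270.7 CPM in secreting cells and 186 CPM in naive B cells. Bcl11a, a factor of early B cell development, stood at 124.1, 136.2 and 149.9 CPM against 3.17, 0 and 8.22 CPM.

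All 16 genes of MHC class II presentation and costimulation were higher in the gated libraries (median -2.89), on the rescaled values and after median-of-ratios scaling alike. The same count held as deposited, a scale that moves every gene towards the gated libraries and so could not turn it. Ciita, the master coactivator of MHC class II, stood at 393, 267 and 346 CPM against 0, 7.48 and 19.9 CPM, with 257 CPM in naive B cells. H2-DMa, a peptide-loading chain, stood at 2297, 1954 and 1753 CPM, above the 1020 CPM of naive cells, and at 57.4, 67.3 and 62.3 CPM in secreting cells. Cd40, the receptor for T cell help, stood at 171, 145 and 113 CPM against 3.97, 2.72 and 0 CPM. The summed level of the list was 77387 to 93305 CPM in the gated libraries, 67685 to 76219 in labelled wild-type naive B cells, 57099 to 64513 in the gate labelled knockout and 9494 to 16880 in secreting cells.

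Of 23 genes of the B cell receptor complex and its signalling, 13 were higher in the gated libraries and 3 in secreting cells (median -1.16), against 18 and 0 of 22 as deposited. Ms4a1 (CD20) stood at 1712, 1447 and 1292 CPM against 102, 214 and 189 CPM, and at 4321 CPM in naive B cells. Pik3ap1 (BCAP), an adaptor that recruits PI3K, stood at 54.9, 55.4 and 57.1 CPM against 1.85, 2.72 and 0 CPM. The 2 signalling chains of the receptor itself did not move with the list, since Cd79a differed by -0.04 and Cd79b by 0.03. These 2 were named after their values were seen.

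Genes of naive follicular and marginal zone B cells did not fall together. Of 17 compared, 9 were higher in the gated libraries and 3 in secreting cells (median -1.63), against 14 and 0 as deposited. Fcer2a (CD23; ENSMUSG00000005540, chromosome 8, 3681737 to 3694175, minus strand), the low-affinity IgE receptor of follicular B cells, stood at 2679, 2140 and 1809 CPM, all above the 1150 to 1440 CPM of labelled wild-type naive B cells. The gate labelled knockout held 45.1 to 89.7 CPM, and secreting cells 11.4, 8.50 and 21.5 CPM. Gpr183 (EBI2), an oxysterol receptor that guides cells out of the follicle centre, stood at 760, 693 and 586 CPM against 60.5, 72.1 and 84.4 CPM, and at 62.4 to 150 CPM in the gate labelled knockout. Il4ra was at 66.4, 57.3 and 79.2 CPM and listed at 0 in all 3 secreting libraries, so that it was at least 66.3-fold higher when secreting cells are set to 1.02 CPM, the highest of the 3 libraries' floors of 3 reads. Ccr6 was listed at 0 in both groups while naive B cells averaged 242 CPM. It was named after its values were seen.

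**Figure D2:**
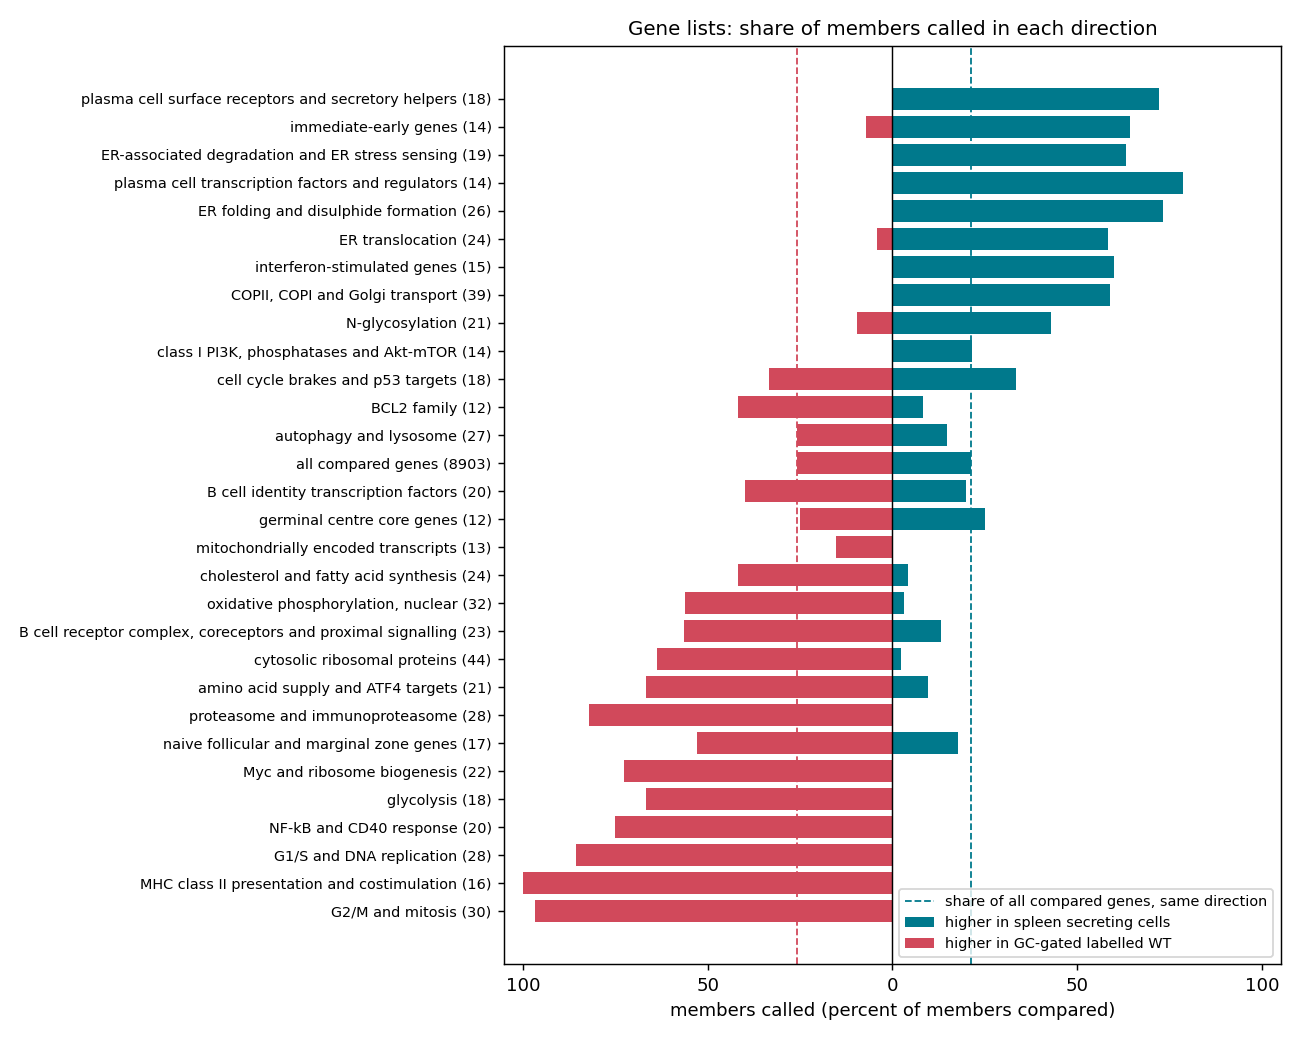
Share of compared members called higher in spleen secreting cells (right) or in the gated libraries labelled WT (left), for lists with at least 10 compared members, whose number is in brackets, with dashed lines at the share over all genes (21.2% and 25.8%). On CPM as deposited, which the bars do not show, the translocation, folding, N-glycosylation, degradation, COPII, interferon and PI3K lists had more members higher in the gated libraries. So did all compared genes on that scale, with 5272 of 7109 higher in the gated libraries.

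Division genes were the other large block of the gated libraries. Of 28 genes of G1/S and DNA replication, 24 were higher there and none in secreting cells (median -2.64), and of 30 genes of G2/M and mitosis 29 and none (median -3.26). Both directions were the same under median-of-ratios scaling. They were also the same as deposited, a scale that moves every gene towards the gated libraries and so could not turn them. The mitotic list summed to 3759 to 5248 CPM in the gated libraries, 492 to 758 CPM in secreting cells and 116 to 225 CPM in labelled wild-type naive B cells. Lig1, the DNA ligase of replication, stood at 245, 244 and 215 CPM against 4.23, 5.78 and 2.05 CPM. Ndc80, a kinetochore subunit, stood at 111, 66.4 and 56.8 CPM against 1.32, 1.02 and 2.05 CPM. Mki67 was the exception among the 30, at 216.1, 398.6 and 466.2 CPM against 155.2, 246.5 and 139.0 CPM, where gated replicate 1 lay below secreting replicate 2 (difference -0.97). It was called without the former (-1.30) or the latter (-1.22). Secreting cells thus kept Mki67 far above the 7.37 CPM of naive B cells while Ndc80 was near the naive level of 1.69 CPM. Ndc80 does not stand for the list. Its median difference, secreting minus naive, was 1.47, and 7 members were at least 4-fold higher in secreting cells without overlap.

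The brake Cdkn1a (p21; ENSMUSG00000023067, chromosome 17, 29090976 to 29100727, plus strand), an inhibitor of cyclin-dependent kinases and target of p53, was high in the same libraries as the division genes. It stood at 635, 693 and 706 CPM in the gated libraries and at 6.61, 9.18 and 9.59 CPM in secreting cells, an 80.1-fold gap (difference -6.18, SE 0.16). Naive B cells averaged 1.03 CPM, the gate labelled knockout ranged from 0 to 9.76 CPM and bone marrow secreting cells averaged 8.67 CPM, so no library of any other group came near. Of 18 brakes and p53 targets, 6 were higher in each group (median -0.02). As deposited, 11 of 16 were higher in the gated libraries and 1 in secreting cells. That is near the share of all genes on that scale, where 5272 of 7109 were higher in the gated libraries. Bax, a pore-forming death effector, stood at 462, 500 and 475 CPM against 66.1, 78.2 and 89.2 CPM, and Zmat3, an RNA-binding p53 target, at 37.2, 24.9 and 34.5 CPM against 10.0, 3.74 and 2.97 CPM. Trp53inp1, a p53 target with a role in autophagy, ran the other way, at 68.1, 194 and 273 CPM against 3489, 2557 and 2686 CPM. Cdkn2c (p18), the inhibitor tied to plasma cell cycle exit and named after its value was seen, averaged 8.88 CPM in the gated libraries and 41.4 CPM in secreting cells.

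Of 12 BCL2 family genes, 5 were higher in the gated libraries and 1, Mcl1, in secreting cells (median -0.04), against 8 and 0 of 10 as deposited. Mcl1, the survival factor on which plasma cells depend and named as the single member, averaged 142 CPM in the gated libraries and 346 CPM in secreting cells. Bcl2a1d, which belongs to a cluster of near-identical genes whose reads may be split uncertainly, stood at 208, 210 and 134 CPM against 5.02, 13.9 and 4.11 CPM.

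**Figure D3:**
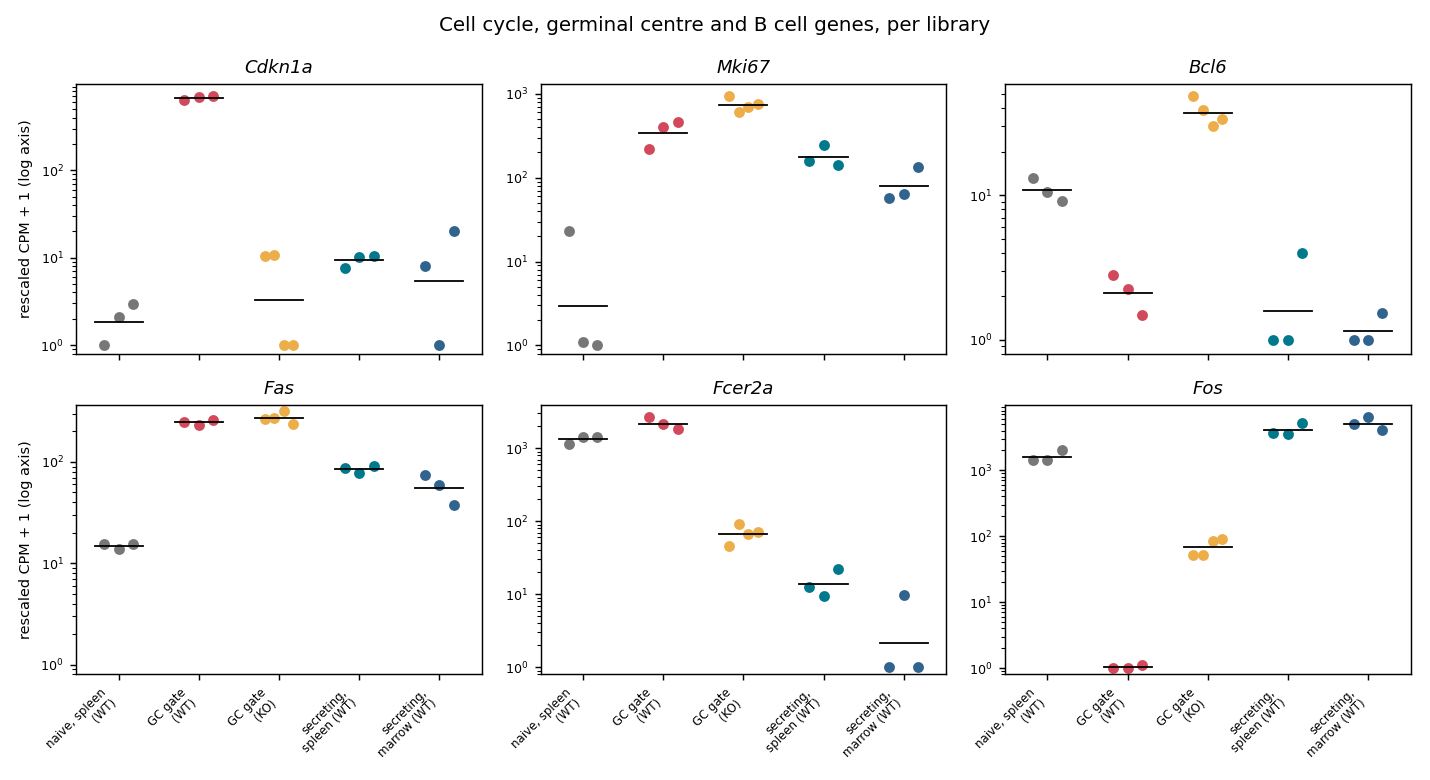
Rescaled CPM plus 1 (log axis) of 6 genes in each library of 5 groups, with 1 point per library and a bar at the mean of log2 values. Cdkn1a is at 635 to 706 CPM in the gated libraries labelled WT alone, Bcl6 is highest in the gate labelled KO, and Fos is at 0, 0 and 0.121 CPM in the gated libraries labelled WT.

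Most members of the ribosomal protein and proteasome lists were higher in the gated libraries, in a table whose labelled knockout libraries had similar levels. Cytosolic ribosomal protein genes numbered 28 higher in the gated libraries and 1 in secreting cells among 44 (median -1.30), oxidative phosphorylation 18 and 1 among 32 (median -1.14), and proteasome genes 23 and none among 28 (median -1.45), with the same direction after median-of-ratios scaling. The direction was also the same on CPM as deposited, which moves every gene towards the gated libraries and so could not turn it. For ribosomal proteins, the gate labelled knockout summed to 13587 to 14720 CPM beside 15958 to 16815 CPM in the gated libraries, with 5468 to 6919 CPM in secreting cells. Processed pseudogenes, many of which copy such genes, were set against all deposited CPM outside the immunoglobulin rows, a total that still held Jchain. They took 4.46% to 5.31% of it in the germinal centre table, 8.42% to 9.50% in spleen secreting cells and 14.6% to 17.1% in naive B cells. With Jchain at 105471 to 108142 deposited CPM, the share in secreting cells is lower than it would be on the rescaled values. The part of pseudogenes in the ribosomal, respiratory and proteasome differences was not tested. Rps29 stood at 65.1, 68.0 and 76.0 CPM against 3.97, 7.48 and 3.65 CPM, and Psme2, an activator of the immunoproteasome, at 157, 166 and 164 CPM against 2.64, 10.2 and 7.07 CPM.

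Glycolysis differed within the germinal centre table as well. Of 18 genes, 12 were higher in the gated libraries and none in secreting cells (median -1.73), against 17 and 0 as deposited. The list summed to 5294 to 5578 CPM in the gated libraries, 1903 to 2480 CPM in the gate labelled knockout, 1970 to 2018 CPM in labelled wild-type naive B cells and 1303 to 1610 CPM in secreting cells. Aldoa, the aldolase of the pathway, stood at 1295, 1123 and 1194 CPM against 256, 225 and 301 CPM, and at 330 to 408 CPM in the gate labelled knockout. Ldha, which makes lactate, stood at 535, 659 and 680 CPM against 123, 116 and 144 CPM.

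Amino acid supply and ATF4 target genes had 14 higher in the gated libraries and 2 in secreting cells among 21 (median -1.32), against 17 and 1 as deposited. Their median difference to naive B cells was 2.66 for the gated libraries and 1.26 for secreting cells. Nupr1, a stress-induced chromatin protein, stood at 160, 134 and 88.8 CPM against 15.1, 16.0 and 20.3 CPM, and was at 0 in all 4 libraries of the gate labelled knockout. Ppp1r15a (GADD34), which restores translation after stress, was one of the 2 exceptions, at 39.7, 75.2 and 88.2 CPM against 692, 804 and 1017 CPM. Cholesterol and fatty acid synthesis had 10 and 1 among 24 (median -0.89), with 18 and 0 of 22 as deposited, and Idi1, an isomerase of the sterol pathway, stood at 502, 648 and 402 CPM against 69.8, 36.0 and 40.4 CPM. Myc and ribosome biogenesis genes had 16 higher in the gated libraries and none in secreting cells among 22 (median -1.65), against 18 and 0 of 19 as deposited, although Myc itself (91.1, 121 and 93.1 against 146, 93.8 and 189 CPM) overlapped between the groups. Autophagy and lysosome genes were near balance, with 7 and 4 among 27 (median -0.16), 22 and 2 as deposited and 5 and 5 after median-of-ratios scaling. Of 13 mitochondrially encoded transcripts, 2 were higher in the gated libraries and none in secreting cells (median -0.45), against 13 and 0 as deposited. Over all compared genes, 25.8% were higher in the gated libraries and 21.2% in secreting cells, and 5272 and 288 of 7109 as deposited. The autophagy and lysosome counts do not set that list apart from them.

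Targets of NF-kB and CD40 were higher in the gated libraries for 15 of 20 genes and in secreting cells for none (median -2.14), with 18 and 0 of 19 as deposited. Their summed level was 7004 to 9191 CPM, against 3472 to 3592 CPM in labelled wild-type naive B cells, 2274 to 2784 CPM in the gate labelled knockout and 1031 to 1346 CPM in secreting cells. Il4i1, a secreted amino acid oxidase, stood at 1923, 1712 and 1591 CPM against 12.4, 34.0 and 0 CPM, with a gap of 112-fold. Ebi3, a cytokine chain, stood at 640, 535 and 334 CPM against 2.64, 14.4 and 11.8 CPM. The chemokine gene Ccl4 stood at 81.4, 60.7 and 121 CPM and was listed at 0 in all secreting libraries, at least 86.0-fold higher. Cd83, an activation marker that stabilises MHC class II at the surface, stood at 3746, 3010 and 2668 CPM against 92.3, 147 and 63.7 CPM.

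Immediate-early genes went the other way and were low across the germinal centre table. Of 14 compared, 9 were higher in secreting cells and 1 in the gated libraries (median 3.12), against 7 and 3 of 11 as deposited. Fos (ENSMUSG00000021250, chromosome 12, 85473890 to 85477273, plus strand) gave the largest difference of all 8903 genes (11.93, SE 0.19), at 0, 0 and 0.121 CPM against 3611, 3547 and 5177 CPM. Naive B cells labelled wild type stood at 1419 to 2016 CPM and the gate labelled knockout at 50.8 to 91.1 CPM. The list summed to 632 to 700 CPM in the gated libraries and 697 to 754 CPM in the gate labelled knockout, and to 9428 to 12238 CPM in labelled wild-type naive B cells and 10915 to 16546 CPM in secreting cells. The heat shock genes Hspa1a (36.2, 0 and 0 against 869, 391 and 1282 CPM) and Hspa1b (0.423, 0 and 0 against 230, 94.2 and 323 CPM) followed Fos, with 2711 and 644 CPM in naive B cells. Naive and secreting cells stand in other tables than the gated libraries, and the part of the table in these values was not tested.

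Interferon-stimulated genes had 9 of 15 higher in secreting cells and none in the gated libraries (median 1.43), against 1 and 4 of 13 as deposited. Isg15, a ubiquitin-like modifier, stood at 3.10, 3.66 and 5.75 CPM against 111, 127 and 153 CPM, with 16.7 to 35.8 CPM in the gate labelled knockout and 23.8 CPM in naive B cells.

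Pik3cg, the gene of the p110γ catalytic subunit of PI3K and the target of the series' knockout, stood at 62.1, 40.5 and 23.0 CPM in the gated libraries and at 118, 192 and 187 CPM in secreting cells. It was 3.96-fold higher in the latter (difference 2.03, SE 0.46), and 0.26 as deposited. The gate labelled knockout ranged from 7.23 to 69.3 CPM and so covered all 3 gated libraries, and labelled wild-type naive B cells averaged 121 CPM. Pik3r5, the regulatory partner p101 of the same kinase, stood at 0, 1.18 and 1.39 CPM against 127, 42.2 and 97.5 CPM. Of 14 genes of class I PI3K, its phosphatases and Akt-mTOR, these 2 and Foxo3 were higher in secreting cells and none in the gated libraries (median 0.46), against 1 and 7 of 10 as deposited. The share higher in secreting cells was near the 21.2% of all compared genes, so it sets the list apart from other genes in no way.

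Markers of other cells were summed beside these results. T cell markers (22 genes) summed to 146 to 244 CPM in the gated libraries and 724 to 1031 CPM in secreting cells, with 3 of 5 compared members higher in secreting cells and 2, Lck and Lat, in the gated libraries. Lck, the proximal T cell receptor kinase, stood at 70.2, 53.5 and 35.9 CPM against 16.4, 13.6 and 19.9 CPM, and Lat, its adaptor substrate, at 8.49, 28.0 and 14.9 CPM against 7.93, 5.10 and 2.97 CPM, a call that median-of-ratios scaling ended. In secreting cells Cd28, also a plasma cell receptor, gave 819, 509 and 605 CPM. The CD3 chain genes Cd3d, Cd3e and Cd3g were at 0 in the gated libraries and at most 5.02 CPM in secreting cells, and Cd4 stood at 0 in every gated library and at 87.0, 22.8 and 67.3 CPM in secreting cells. Monocyte and macrophage markers (17 genes) summed to 107.1 to 271.0 and 275.4 to 335.0 CPM, led by Adgre1 in the gated libraries (184, 59.3 and 40.4 CPM) and by Itgam in secreting cells (264, 103 and 183 CPM), with Cd163 and Fcgr1 at 0 in both. Erythroid genes summed to 3.71 to 22.9 and 4.76 to 321 CPM, neutrophil genes to 0 to 0.661 and 0.228 to 117 CPM, and NK and innate lymphoid genes to 10.0 to 16.2 and 185.3 to 282.3 CPM. Prf1 led the last list, at 9.60, 12.0 and 11.2 against 188.5, 136.7 and 223.4 CPM. Dendritic cell markers summed to 87.8 to 106 and 169 to 243 CPM, and stromal, endothelial and platelet markers to 7.96 to 23.2 and 62.1 to 79.6 CPM. The part of such cells in the results was not tested.

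Among the 10 largest differences in each direction were further genes outside the lists. Lilrb4a and Lilr4b, neighbouring inhibitory receptor genes of similar sequence, stood at 564, 398 and 568 CPM and at 191, 190 and 170 CPM in the gated libraries, and at 6.46 CPM or less in secreting cells. Ms4a6c (675, 508 and 418 against 0.793, 4.08 and 2.28 CPM) and Cst7, a cysteine protease inhibitor (611, 532 and 412 against 3.17, 1.70 and 2.28 CPM), were likewise low in naive B cells, at 6.45 and 0.974 CPM. In the other direction, Klrb1 was listed at 0 in all gated libraries and stood at 160, 46.2 and 127 CPM in secreting cells, at least 614-fold higher. Itgam, of the monocyte list, was also at 0 in the gated libraries and at least 1013-fold higher. Tspan15, a tetraspanin that guides the protease ADAM10, stood at 1.07, 0 and 0 against 167, 76.8 and 157 CPM, and Pls1, an actin-bundling protein, at 0, 0 and 3.63 against 200, 217 and 71.7 CPM.

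To place the gated libraries on the path, genes that separate naive B cells from secreting cells were chosen without the germinal centre table. Of 8783 genes, 646 (7.36%) were at least 4-fold higher in spleen secreting cells than in labelled wild-type naive B cells without overlap, and 521 (5.93%) at least 4-fold lower. The position of a gene in a library is 0 at the naive mean and 1 at the secreting mean on the log2(CPM + 1) scale, and each library is given its median over genes. Naive and secreting cells also come from separate tables.

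For the 646 genes gained by secreting cells, the gated libraries stood at 0.33, 0.42 and 0.44 (mean 0.40 ± 0.06 SD, n = 3). The 4 libraries of the gate labelled knockout stood lower, at 0.18, 0.23, 0.21 and 0.14. For the 521 genes lost, the gated libraries stood at 0.49, 0.56 and 0.55 (0.53 ± 0.04), and the gate labelled knockout at 0.29, 0.36, 0.38 and 0.43. Neither set overlapped between the labelled genotypes, a difference within one table that was not tested, and on CPM as deposited both overlapped, with means of 0.63 and 0.57 for genes gained and 0.25 and 0.19 for genes lost. Without secreting replicate 2, the gated means were 0.33 and 0.45. The gate labelled knockout also held T cell markers at 1957 to 3966 CPM in sum, against 146 to 244 CPM in the gated libraries, and their part in the gap between labelled genotypes was not tested.

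**Figure D4:**
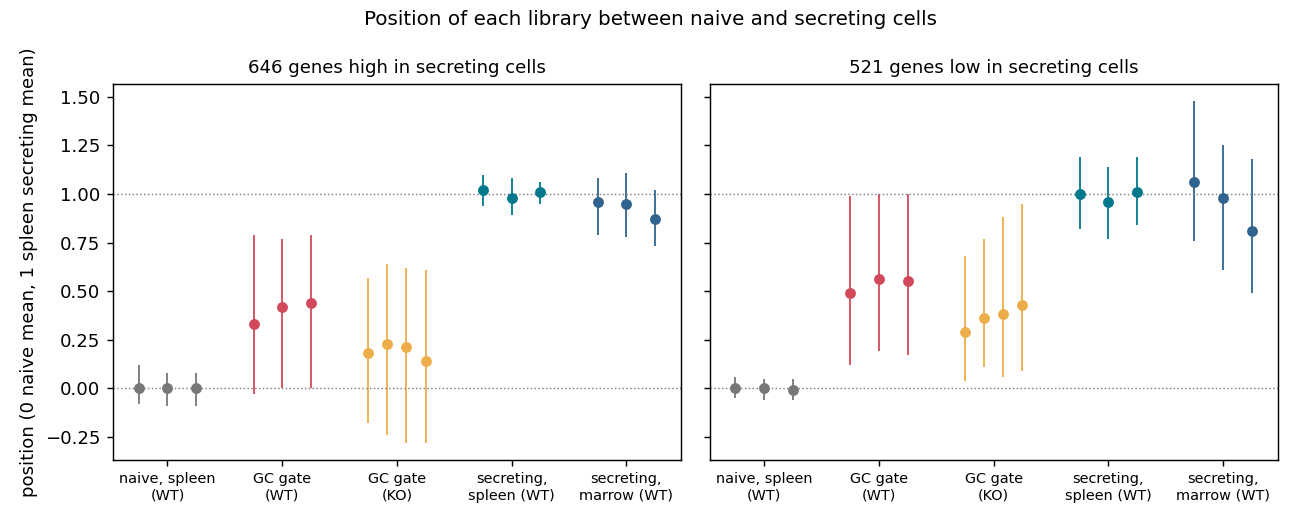
Median position of each library between naive B cells (0) and spleen secreting cells (1), with bars from the lower to the upper quartile over genes, for 646 genes high (left) and 521 low (right) in secreting cells. The gated libraries labelled WT stand at 0.33 to 0.44 and 0.49 to 0.56, above the gate labelled KO on both sides, which holds for the rescaled values and not for CPM as deposited.

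A median near the middle did not mean that most genes stood there. Of the 646 genes, 41.3% lay below 0.25 in the gated libraries, 35.1% between 0.25 and 0.75, and 23.5% above 0.75. Of the 521 genes, the shares were 29.2%, 32.6% and 38.2%. Places were also counted gene by gene over 9062 genes without regard to the axis, by the 2 conditions of a call against naive and against secreting cells. A place between them therefore needed ends at least 4-fold apart, which a place above or below both did not. The counts of these places cannot be weighed against each other for that reason. Between both stood 171 genes (1.89%). Above both stood 1439 (15.9%), and below both 1228 (13.6%). Of those above and below both, 836 and 897 also had the gate labelled knockout outside on the same side, in the same table. Whole libraries were also compared by Pearson r of log2(CPM + 1) over the 8903 compared genes. Gated libraries stood at 0.36 to 0.47 with secreting libraries and at 0.47 to 0.49 with labelled wild-type naive B cells. Naive and secreting libraries stood closer to each other, at 0.64 to 0.66. The part of the table in these values was not tested.

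Position differed by gene group. Plasma cell regulators of the axis (11 genes) stood at 0.55 to 0.59 in the gated libraries and at 0.00 to 0.26 in the gate labelled knockout. ER lists lay between, with translocation at 0.36 to 0.45, degradation at 0.38 to 0.43, COPII and Golgi transport at 0.41 to 0.46, folding at 0.35 to 0.60 and N-glycosylation at 0.47 to 0.63. Plasma cell surface receptors spread from 0.18 to 0.53 and overlapped the gate labelled knockout (0.31 to 0.54). Among genes lost, B cell identity factors stood at 0.42 to 0.72 and receptor signalling at 0.35 to 0.47, both above the gate labelled knockout (0.13 to 0.29 and 0.15 to 0.21). MHC class II genes had hardly left the naive level, at 0.02 to 0.09, while the gate labelled knockout stood at 0.16 to 0.30. NF-kB and CD40 targets showed the same order, at 0.14 to 0.26 against 0.39 to 0.46. Mitotic genes of the axis lay beyond secreting cells, at 1.76 to 1.94. By single regulators, the gated libraries stood at 0.76 for Prdm1, 0.57 for Xbp1 and 0.45 for Irf4. In the same list they stood lower for Bhlha15 (0.34) and Arid3a (0.16), and near the naive end for Creb3l2 (0.04).

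**Figure D5:**
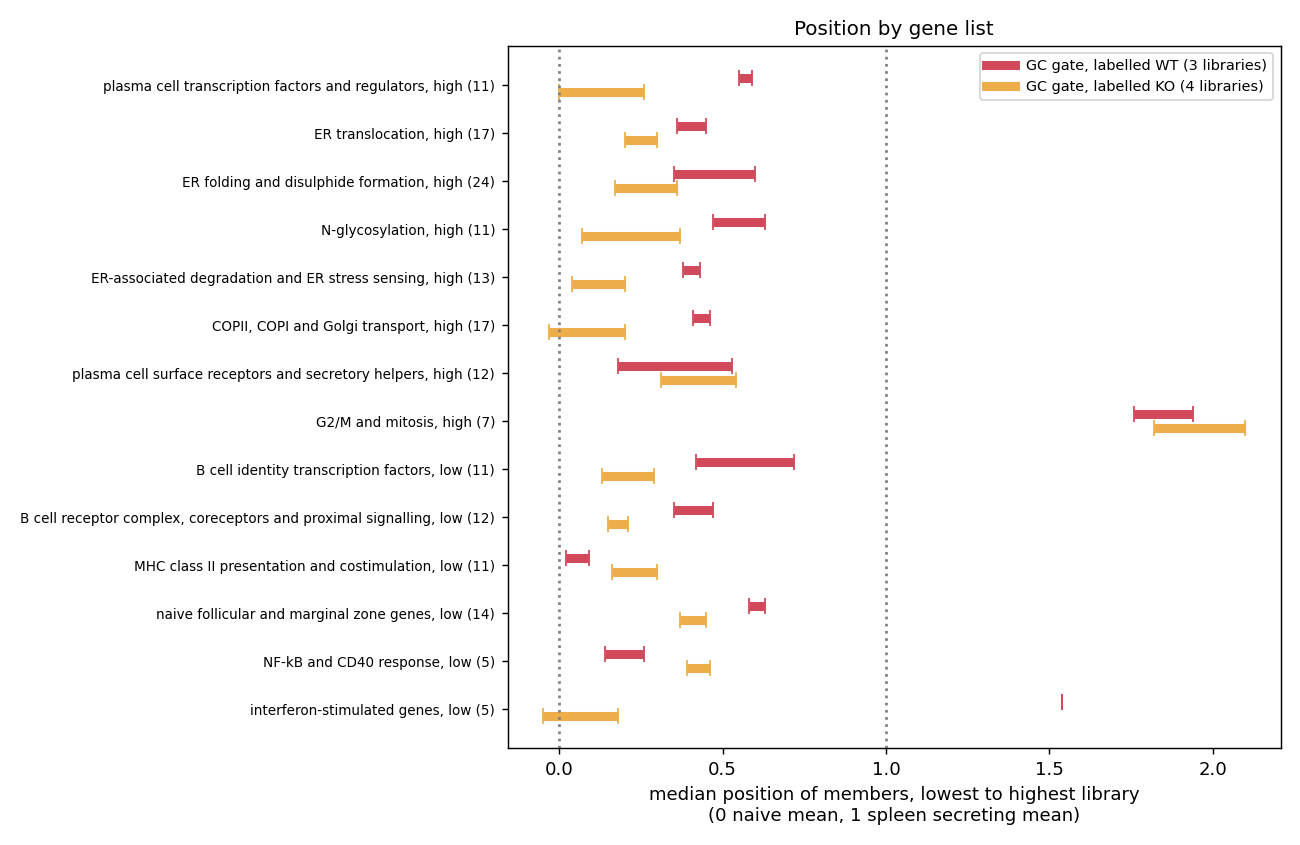
Lowest to highest library median position of the members of each list on the axis from naive B cells (0) to spleen secreting cells (1), for lists with at least 5 genes on the axis, whose number is in brackets. The gated libraries labelled WT are at 0.55 to 0.59 for plasma cell regulators and at 0.02 to 0.09 for MHC class II genes, on rescaled values.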

How the data were processed

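RNA-seq libraries from sorted cells were aligned to mm10 with STAR (versions not stated), per the submitters' processing notes. Filters, counter, annotation and use of strand are not given in the sources, and reads of overlapping, antisense or near-identical genes may therefore be split wrongly. The authors deposited CPM in 4 tables. Of these, the germinal centre table lists 17939 genes and carries an added 0.0001 that was subtracted here, and the other tables list 19416. In those, 19 names turned into spreadsheet dates and 2 duplicated rows were left out. Low values were whole multiples of 1 read (tolerance 0.02, below 1000 reads) in 61.5% to 67.8% of cases in the germinal centre table and 85.2% to 88.9% elsewhere, so no count test was used. Depth estimated from these steps was 19600000 to 21600000 assigned reads in the gated libraries and 13100000 to 16400000 in spleen secreting cells.

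Values were rescaled and compared in Python 3.11.15 with pandas 2.3.3 and numpy 2.4.6, as described in the report, and the call rule was tested on simulated data. A log2 difference with a pseudocount of 1 understates the change of low genes. SE is that of the difference of group means over 3 and 3 libraries. Floors of 3 reads per library cover counting error only. Positions of genes come from GENCODE M21. The 36 gene lists, the members and the rules were chosen with earlier results of these data known. Named genes are the 10 largest calls each way reaching 50 CPM (immunoglobulin and T cell receptor segments, predicted genes, Rik genes and pseudogenes left out), up to 4 called members of each list (up to 2 where none was called) and 18 fixed genes. Other list members named to complete a count or check the label were chosen after their values were seen. Alternatives covered fold, pseudocount, filter, scaling, the axis, genes that separate the tables and each library left out. Restriction to protein-coding genes was added after the data were seen. Some genes are not reported here.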

Additional observations from a re-analysis of the deposited data

How the results depend on the processing

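The scale decided most. On CPM as deposited, 288 genes were higher in secreting cells and 5272 in the gated libraries, the positions became 0.63 for genes gained and 0.25 for genes lost, and Prdm1 (-0.06), Bst2 (-0.01) and Mzb1 (-0.34) changed sign. Of 148 named calls, 22 were lost on that scale, among them Xbp1, Irf4, Hspa5, Syvn1, Bhlha15 and Pik3cg. Immunoglobulin transcripts then stay in the total. A 4-fold threshold left 1181 and 1063 genes, a minimum mean of 50 CPM 816 and 1179, and 1086 and 1457 were left once genes that separate the germinal centre table were dropped. A pseudocount of 5 moved the positions to 0.31 and 0.61. The position for genes lost was 0.49 with a pseudocount of 0.1 or with bone marrow secreting cells as the far end, 0.58 with a minimum mean of 1 CPM or no filter, 0.59 with a minimum of 50 CPM or median-of-ratios scaling, and 0.60 with axis genes of at least 2-fold. Why these moved was not tested. With each library left out, counts ran from 1823 to 2121 and from 2332 to 2474, and positions from 0.33 to 0.43 and from 0.45 to 0.56. Protein-coding genes alone gave 1283 and 1981 genes and positions of 0.43 and 0.55. Among 2353 recomputed differences of 152 named genes, 2131 moved by less than the replicate SD, 219 by more, and 3 changed sign. The fold and filter settings cannot change a difference, so their values are among the 2131 by construction and the tally does not measure robustness to them. No paired analysis was possible because the result comes from no test across the separately normalized tables, and no label ties the replicate numbers to mice. The 2940000 to 4380000 reads of secreting libraries limit genes near 1 CPM.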

Other observations

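Xist, the RNA of the inactive X chromosome, was listed at 0 in gated replicate 3, while replicates 1 and 2 stood at 195.8 and 172.3 CPM and the secreting libraries at 61.9 to 75.9 CPM. The results without that library are within the ranges given for leaving out each library.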
